A study of Mus musculus with 12 samples.

Results

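The 50 genes described here carry out and control cell division. They were taken by symbol: the D, E, A and B cyclins, the cyclin-dependent kinases (Cdks) and their inhibitors, the Rb family, the E2F factors, and genes of DNA replication and mitosis. The deposited table lists 47642 genes, of which 25060 had a count and 18552 passed the filter on low values, and the filter kept all 50 members. RNA had been sequenced from mIMCD3 cells, an epithelial line of the mouse inner medullary collecting duct, as wild-type cells (WT) and as cells without Pkd1 or without Pkd2, the genes mutated in polycystic kidney disease. Each genotype had 4 libraries, which makes 12 in all. Pkd1-/- cells were 1 clone made with CRISPR that lacks the whole gene, and Pkd2-/- cells were 1 clone made with TALEN that lacks an internal stretch of the gene. All libraries came from dishes kept for 4 days after full confluency, without a drug or other treatment, and the 4 dishes of a genotype had been chosen from 6 by the purity of their RNA. The dishes are not independent clones, so the p-values measure the spread between dishes of 1 line and not between clones. mIMCD3 cells come from mice carrying the early region of SV40, which keeps them dividing in culture. Its large T antigen is known to bind Rb family proteins and p53, and its RNA was not analysed here.

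In the normal cycle, D-type cyclins activate Cdk4 and Cdk6 in response to growth signals, and these kinases phosphorylate the Rb family. Phosphorylated Rb releases E2F factors, which switch on cyclin E, the replication genes and later regulators. The Ink4 inhibitors block Cdk4 and Cdk6, and mitotic genes are switched on last, by Foxm1 and Mybl2. In the kidney, tubule cells of an adult rarely divide, and cyst growth in polycystic disease is known for renewed proliferation of the tubule epithelium. For the lines used here, the authors describe proliferation of the mutants as similar to that of wild-type cells.

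Between 23188147 and 30325429 reads per library were estimated to have been counted on genes, and log2 values of libraries of the same genotype correlated across genes at 0.985 to 0.989 (18 pairs, a description across genes, which are not independent). The targeted gene followed the labels for Pkd1, with 682 to 883 normalized counts in WT and 30 to 49 in Pkd1-/- cells. Total Pkd2 counts do not check its label, since the transcript outside the deleted stretch is still counted, at 3438 to 4467 in WT and 3855 to 4135 in Pkd2-/- cells. Of 11 epithelial markers, 10 were above 10 normalized counts in every library, while the collecting duct water channel Aqp2 was at 0 in all 12. Summed epithelial markers came to 69482 to 77572 in WT, 70118 to 72001 in Pkd1-/- and 77555 to 80980 in Pkd2-/- cells. Single markers were less even, as Gata3 had 176 to 248, 42 to 56 and 294 to 430 in the same order. Summed fibroblast markers (5 genes) came to 22 to 51 in WT, 21 to 34 in Pkd1-/- and 15 to 99 in Pkd2-/- cells, with Thy1 at 0 throughout. Summed leukocyte markers (3 genes) came to 59 to 73, 47 to 65 and 52 to 69 in the same order, mostly from Cd68 at 47 to 69, with Ptprc at 5 or less and Cd3e at 0. Summed endothelial markers (3 genes) came to 1 to 4, 0 to 9 and 1 to 7, all from Pecam1, with Kdr and Cdh5 at 0. Mitochondrial transcripts took 1.36% to 3.61% of a library, with the highest share in WT replicate 4. Values below are normalized counts, which are read counts divided by the library's size factor and rounded, and fold changes are differences of log2(normalized count + 1).

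Division genes were abundant in these confluent cells. On the scale of normalized counts per kb of annotated exon, 48 of the 50 members stood in the upper part of all tested genes in WT, at or above the 50th percentile, and 24 stood at or above the 90th. The exceptions were 2 D-type cyclins. Ccnd2 was at percentile 10.5 with 1.36 normalized counts per kb, and Ccnd1, in many epithelia the main D-type cyclin, was at percentile 26.9 with 8.07. The kinase partner Cdk4 stood at percentile 99.2 and the Ink4 inhibitor gene Cdkn2a at 99.4, the highest of the members. The licensing helicase genes Mcm2 to Mcm7 lay between percentiles 97.1 and 99.0. All members together took 0.976% to 1.04% of a WT library, 1.10% to 1.13% of a Pkd1-/- library and 0.958% to 1.02% of a Pkd2-/- library.

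**Figure D1:**
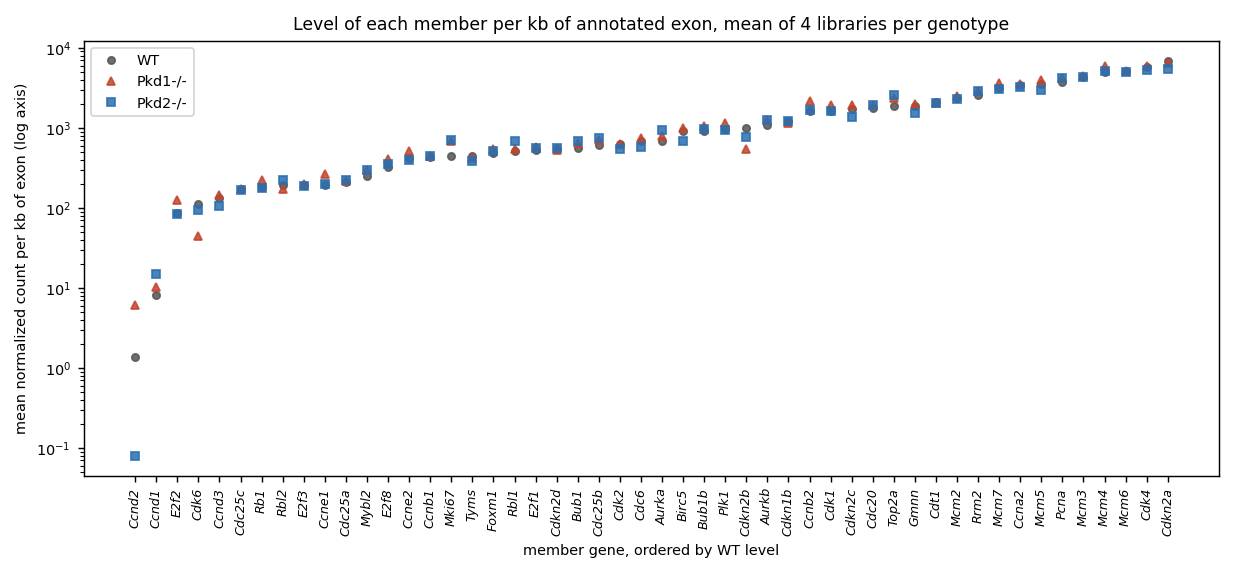
Level of each of the 50 members as mean normalized count per kb of annotated exon (log axis), ordered by the WT level, with WT as circles, Pkd1-/- as triangles and Pkd2-/- as squares (means of 4 libraries). Most members differ little between genotypes against the range between genes, and Ccnd2 (1.36 in WT, 6.03 in Pkd1-/- and 0.0797 in Pkd2-/- cells) is the lowest member and the one whose genotypes lie farthest apart.

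In Pkd1-/- cells, 27 of the 50 members were higher than in WT, 2 were lower and 21 did not pass the test (limma, adjusted p under 0.05). Over all tested genes, 13.6% were called higher and 13.5% lower, and among genes averaging 1000 normalized counts or more, to which 44 of the members belong, 20.1% were higher and 18.5% lower, against 24 and 2 of those 44 members. In bulk RNA, more cells in a phase of the cycle and more RNA per cell cannot be told apart. The changes were small: the median log2 fold change was 0.14, beside 0.01 for all tested genes, and 45 of 50 members changed by less than 0.5 in either direction. Only Ccnd2 and Cdk6 passed a log2 fold change of 1, as did 6.24% of all tested genes in either direction. All 4 Pkd1-/- libraries lay above all 4 WT libraries for 29 members and below them for 2, where 13.5% and 13.6% of all genes did so. For such a gene a two-sided exact permutation test gives p = 0.0286, the smallest that 4 libraries against 4 allow.

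In Pkd2-/- cells the list was split, with 12 members higher than in WT, 11 lower and 27 without a call. These shares stand beside 20.0% higher and 22.3% lower over all genes, and 11 and 10 of the 44 abundant members stand beside 34.8% and 26.0% of abundant genes. With the libraries rescaled to a common upper quartile the split was 10 higher and 14 lower. The median was -0.01 for the members and -0.01 for all genes, and 47 of 50 members changed by less than 0.5. Ccnd2 alone passed a log2 fold change of 1, as did 9.62% of all genes, and without WT replicate 1 or without Pkd2-/- replicate 2 there were 2, Ccnd1 being the added gene. Pkd2-/- libraries lay wholly above WT for 11 members and wholly below for 13, beside 17.4% and 19.8% of all genes.

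Both comparisons use the same WT libraries, so the mutants were also compared directly. Pkd2-/- cells were lower than Pkd1-/- cells in 22 members and higher in 5, and 23 had no call, while 24.3% of all genes were lower and 21.9% higher. Of the 44 abundant members 19 were lower and 5 higher, beside 28.7% and 35.9% of abundant genes. The median was -0.11 for the members, -0.01 for all genes and 0.04 for abundant genes, and 43 members differed by less than 0.5. Past a log2 fold change of 1 there were again Ccnd2 and Cdk6, with 11.8% of all genes. Libraries were wholly lower in Pkd2-/- cells for 25 members and wholly higher for 6, beside 22.0% and 19.8% of all genes.

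**Figure D2:**
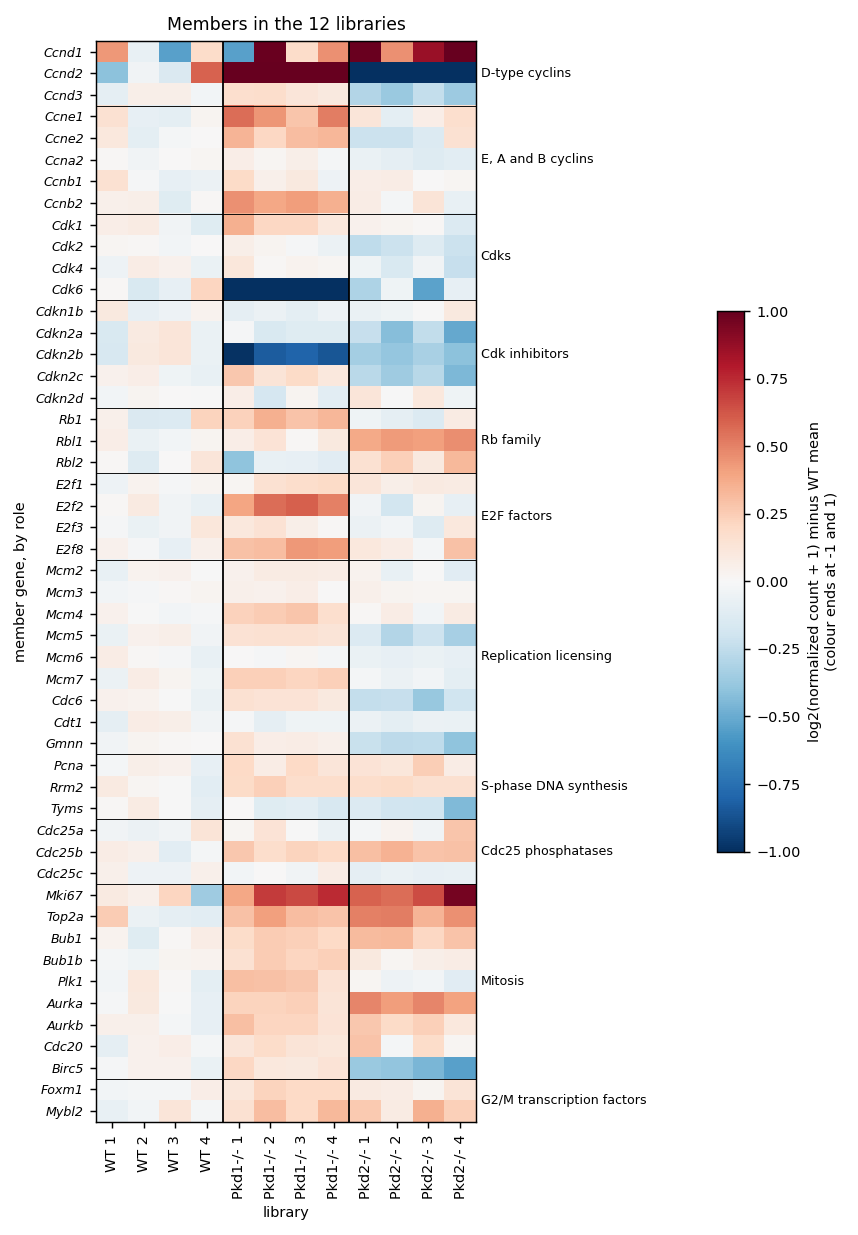
Log2(normalized count + 1) of each member in each of the 12 libraries minus its WT mean, by role, with colours ending at -1 and 1 (red higher, blue lower). The Pkd1-/- columns are mostly pale red, with Cdk6 and Cdkn2b blue in all 4, whereas the Pkd2-/- columns are red for most of the mitosis genes and blue for Ccnd2, Ccnd3, Cdkn2a, Cdkn2b, Cdkn2c, Birc5 and part of the licensing genes.

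The D-type cyclins, which link growth signals to the cycle, included the member with the largest differences, Ccnd2, which was higher in Pkd1-/- and lower in Pkd2-/- cells. Ccnd2 (chr6:127125162-127152193, GRCm38) had 9, 12, 11 and 19 normalized counts in the WT libraries, 52, 61, 53 and 61 in Pkd1-/- cells and 0, 0, 3 and 0 in Pkd2-/- cells. The genotypes did not overlap. Against WT, Ccnd2 was higher in Pkd1-/- cells by 2.12 on the log2 scale (SE 0.41, limma adjusted p = 0.000661). In Pkd2-/- cells 3 reads remained in all, and the WT level was 17.6 times that of Pkd2-/- cells, with a 95% counting interval of 5.67 to 88.1, and the Pkd1-/- level 78.2 times, with an interval of 26.4 to 382 (adjusted p = 3.57e-06 and 3.48e-09). Per kb of exon, Ccnd2 in Pkd1-/- cells (6.03 normalized counts) was still below Ccnd1 (10.2).

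Ccnd3 was the most abundant D-type cyclin per kb of exon in each genotype, with a level of 132 normalized counts per kb in WT, and its WT libraries held 1088, 1203, 1200 and 1133. Pkd1-/- libraries held 1297, 1306, 1256 and 1237 and lay above WT, a difference of 0.14 that missed the threshold (adjusted p = 0.0587, and 0.0451 with a minimum mean of 10). Pkd2-/- libraries fell below WT, with 944, 892, 977 and 900 (-0.32, SE 0.053, adjusted p = 8.47e-05). Ccnd1 was low, with 50, 35, 25 and 42 in WT, 25, 74, 42 and 51 in Pkd1-/- and 74, 51, 68 and 89 in Pkd2-/- cells. The Pkd1-/- libraries spanned the WT range (0.27, SE 0.28, adjusted p = 0.54), and the Pkd2-/- libraries lay just above it (0.89, SE 0.28, adjusted p = 0.0154), a call lost without WT replicate 3 (0.71, adjusted p = 0.0624). The mutants were not separated for Ccnd1 (adjusted p = 0.082), except without Pkd1-/- replicate 2 or Pkd2-/- replicate 2 (adjusted p = 0.0176 and 0.0489). Exons of Ccnd1 share 23.4% of their bases with the opposite-strand gene Lto1, and whether counting used strand was not given in the sources used here.

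**Figure D3:**
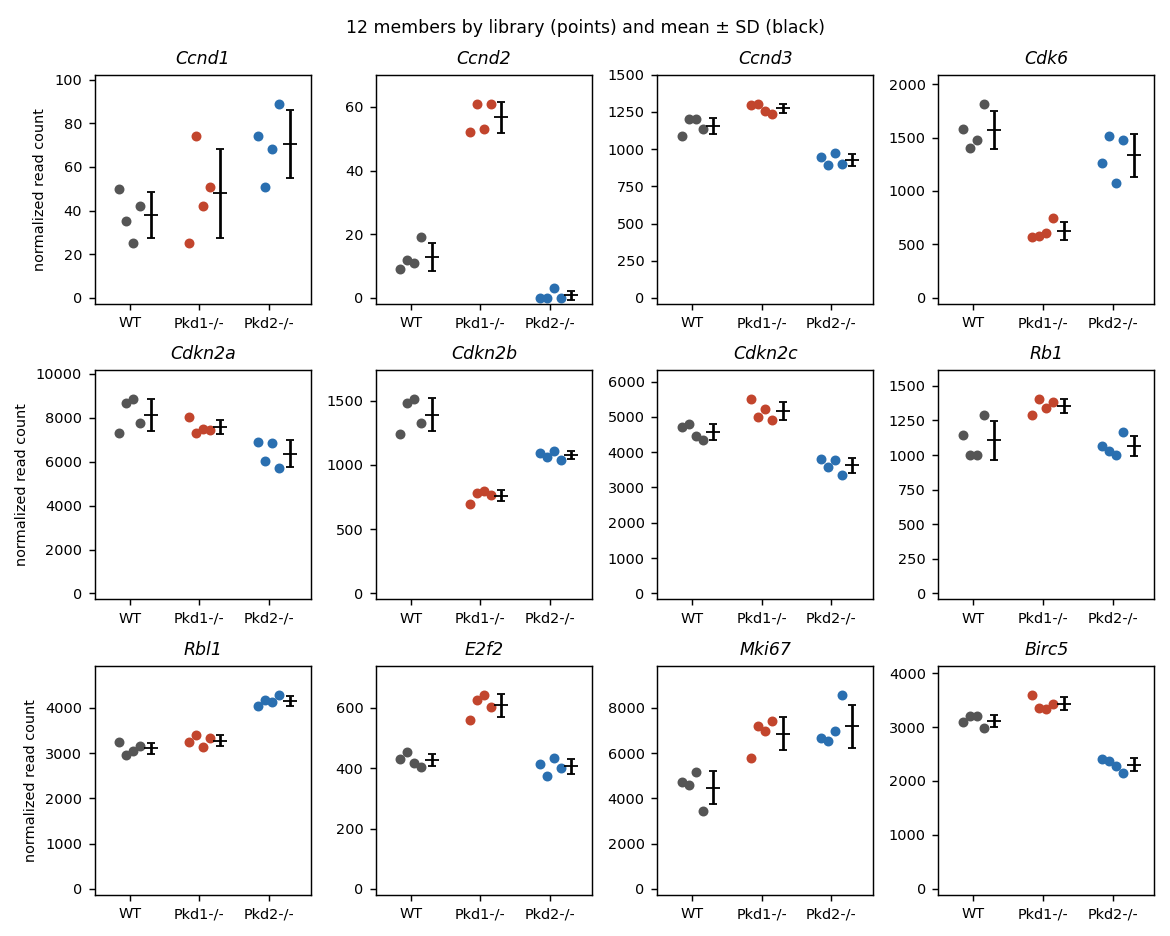
Normalized read counts of 12 members in each library (points), with the mean and SD of 4 libraries per genotype in black and the vertical axis starting at 0. Ccnd2 separates all genotypes, Cdk6 falls in Pkd1-/- cells from 1569 to 626, and Birc5 lies lowest in Pkd2-/- cells.

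Among the kinases, Cdk6 showed a strong fall in Pkd1-/- cells. Cdk6 (chr5:3341485-3531008), a partner of the D-type cyclins, had 1577, 1406, 1476 and 1817 normalized counts in WT. It dropped to 573, 577, 608 and 748 in Pkd1-/- cells (-1.32, SE 0.11, adjusted p = 1.61e-08). Pkd2-/- libraries held 1264, 1516, 1079 and 1474, which overlapped WT (-0.24, adjusted p = 0.0778, but 0.0362 or 0.0402 without Pkd2-/- replicate 2 or 4, and 0.0368 with upper quartile rescaling), and they exceeded Pkd1-/- cells by 1.08 (SE 0.11, adjusted p = 8.54e-08). The fall in Pkd1-/- cells ranged from -1.41 to -1.25 when single libraries were left out. Genes around Cdk6 moved too: of 26 tested neighbours within 5 Mb with a mean of at least 10, 24 had a negative log2 fold change in Pkd1-/- cells, with a median of -0.32, and the part of this in the result was not tested.

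Cdk4, the other partner of the D-type cyclins, had a mean of 18463 in WT and was not called in either mutant (0.05 in Pkd1-/- and -0.11 in Pkd2-/- cells), although Pkd2-/- cells were lower than Pkd1-/- cells (-0.16, limma adjusted p = 0.0156, and 0.0515 or 0.0572 without Pkd1-/- replicate 1 or Pkd2-/- replicate 4). Without Pkd2-/- replicate 3 or with upper quartile rescaling the difference of Cdk4 in Pkd2-/- cells from WT was called (-0.14, adjusted p = 0.0489 and 0.0452). The mitotic kinase gene Cdk1 had 8464, 8570, 7912 and 7457 in WT and 10340, 9324, 9335 and 8713 in Pkd1-/- cells, all above WT (0.22, SE 0.059, adjusted p = 0.00878). Pkd2-/- libraries, at 8325, 8244, 8154 and 7341, overlapped WT (-0.01) and were lower than Pkd1-/- cells (-0.23, adjusted p = 0.00292). Cdk2, the cyclin E and A partner, had a mean of 3858 in WT, 3864 in Pkd1-/- and 3350 in Pkd2-/- cells (-0.20, adjusted p = 0.000752 in Pkd2-/- cells).

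The inhibitors changed one by one. Cdkn2b, an Ink4 inhibitor known to respond to TGF-beta, was lower in both mutants, which were compared with the same WT libraries. It had 1241, 1486, 1512 and 1326 in WT, 698, 780, 796 and 764 in Pkd1-/- cells (-0.87, SE 0.066, adjusted p = 7.75e-09) and 1093, 1059, 1110 and 1041 in Pkd2-/- cells (-0.37, SE 0.066, adjusted p = 0.000162). Both mutants lay below every WT library, and Pkd2-/- cells exceeded Pkd1-/- cells by 0.50 (adjusted p = 3.72e-06). Cdkn2a, the adjacent gene, which encodes an Ink4 inhibitor and Arf, had 7296, 8659, 8848 and 7757 in WT and 8053, 7313, 7480 and 7465 in Pkd1-/- cells, which overlapped (-0.10, adjusted p = 0.32). In Pkd2-/- cells it was lower, at 6898, 6025, 6853 and 5698 (-0.35, SE 0.068, adjusted p = 0.000303). The 26 tested neighbours of Cdkn2a within 5 Mb had a median of -0.28 in Pkd2-/- cells and 0.01 in Pkd1-/- cells, and their part in the result was not tested.

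Cdkn2c, another Ink4 inhibitor, moved in opposite directions. It had 4723, 4801, 4450 and 4337 in WT, 5499, 4997, 5222 and 4923 in Pkd1-/- cells (0.17, adjusted p = 0.0186) and 3794, 3568, 3773 and 3358 in Pkd2-/- cells (-0.34, SE 0.052, adjusted p = 3.29e-05). The rise in Pkd1-/- cells lost its call without WT replicate 3 (adjusted p = 0.0556), WT replicate 4 (0.0639), Pkd1-/- replicate 1 (0.0645) or Pkd1-/- replicate 3 (0.0511), whereas the difference between the mutants was larger (-0.51, adjusted p = 1.61e-07). Cdkn2d, the remaining Ink4 gene, did not pass the test, with 834, 866, 849 and 846 in WT, 888, 755, 867 and 788 in Pkd1-/- and 921, 848, 914 and 824 in Pkd2-/- cells. Cdkn1b, the inhibitor that is known to hold contact-inhibited cells in arrest, was close to WT, with 5878, 5182, 5300 and 5638 in WT, 5172, 5260, 5138 and 5300 in Pkd1-/- and 5246, 5339, 5466 and 5867 in Pkd2-/- cells. All 3 genotypes overlapped for Cdkn1b and Cdkn2d, and the 95% intervals of their changes against WT stayed within 0.18 on the log2 scale.

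The Rb family, the targets of these kinases, split by member. Rb1 had 1142, 997, 999 and 1287 in WT, 1288, 1404, 1338 and 1386 in Pkd1-/- cells (0.30, SE 0.075, adjusted p = 0.00518) and 1068, 1032, 1003 and 1166 in Pkd2-/- cells (-0.05, no call). The Pkd1-/- libraries lay above WT by a margin of 1 count. Rbl1, which encodes p107, a partner of repressive E2F factors, had 3244, 2968, 3046 and 3161 in WT, 3246, 3403, 3134 and 3326 in Pkd1-/- (0.08, no call) and 4035, 4179, 4120 and 4288 in Pkd2-/- cells (0.42, SE 0.045, adjusted p = 3.18e-07). Rbl2, which encodes p130, the pocket protein of resting cells, had 1448, 1314, 1439 and 1564 in WT, 1088, 1366, 1358 and 1327 in Pkd1-/- (-0.17, adjusted p = 0.107) and 1597, 1698, 1540 and 1806 in Pkd2-/- cells (0.20, adjusted p = 0.0348). That last call was lost without any of WT replicates 1, 2 and 3 or Pkd2-/- replicates 2 and 4 (adjusted p up to 0.12) and with upper quartile rescaling (0.0563), while Pkd2-/- cells exceeded Pkd1-/- cells in both Rbl1 (0.34) and Rbl2 (0.37, limma adjusted p = 3.31e-06 and 0.000392). Exons of Rbl2 share 21.0% and those of Rb1 14.9% of their bases with opposite-strand genes. The same limit holds for Cdk4 (19.7%), Ccne2 (17.4%), Cdc25c (12.7%), Ccna2 (12.5%) and E2f8 (11.2%). Exons of Mcm7 share 12.6% with genes of either strand.

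E2F factors and E cyclins, which drive entry into S phase, were higher in Pkd1-/- cells: 3 of 4 E2F members and both E cyclins, where 13.6% of all genes were. E2f2 had 430, 452, 416 and 405 in WT and 558, 626, 643 and 603 in Pkd1-/- cells (0.51, SE 0.071, adjusted p = 1.92e-05). In Pkd2-/- cells it had 415, 374, 433 and 401, which overlapped WT (-0.07) and was lower than Pkd1-/- cells by 0.58 on the log2 scale (adjusted p = 1.57e-06). The repressor E2f8 rose in Pkd1-/- cells by 0.36 (adjusted p = 0.00016), and the activator E2f1 by 0.14 (adjusted p = 0.0437), a call lost without WT replicate 1, 3 or 4 or Pkd1-/- replicate 2, 3 or 4 (adjusted p up to 0.125), without a filter (0.0501) and with only the 2 genotypes in the fit (0.0604). E2f3 was not called in either mutant. Ccne1 had 565, 482, 476 and 520 in WT, 750, 692, 619 and 727 in Pkd1-/- (0.45, SE 0.080, adjusted p = 0.000278) and 555, 476, 533 and 573 in Pkd2-/- cells (0.06, no call). Ccne2 followed with 0.30 in Pkd1-/- cells (adjusted p = 0.00379) and -0.10 in Pkd2-/- cells (no call). No E2F factor and no E, A or B cyclin was called against WT in Pkd2-/- cells by limma, and at an unadjusted p under 0.05 there was 1, Ccna2 (-0.10, adjusted p = 0.0503). That absence is not firm for Ccna2, which was called with a pseudocount of 0.5 (adjusted p = 0.0471), a minimum mean of 10 (0.0326), upper quartile rescaling (0.0145) or voom weights (0.0297), and without WT replicate 2 (0.0487). A call also appeared for Ccne2 without Pkd2-/- replicate 4 (-0.19, adjusted p = 0.0126) and for E2f8 without Pkd2-/- replicate 3 (0.16, adjusted p = 0.0497).

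**Figure D4:**
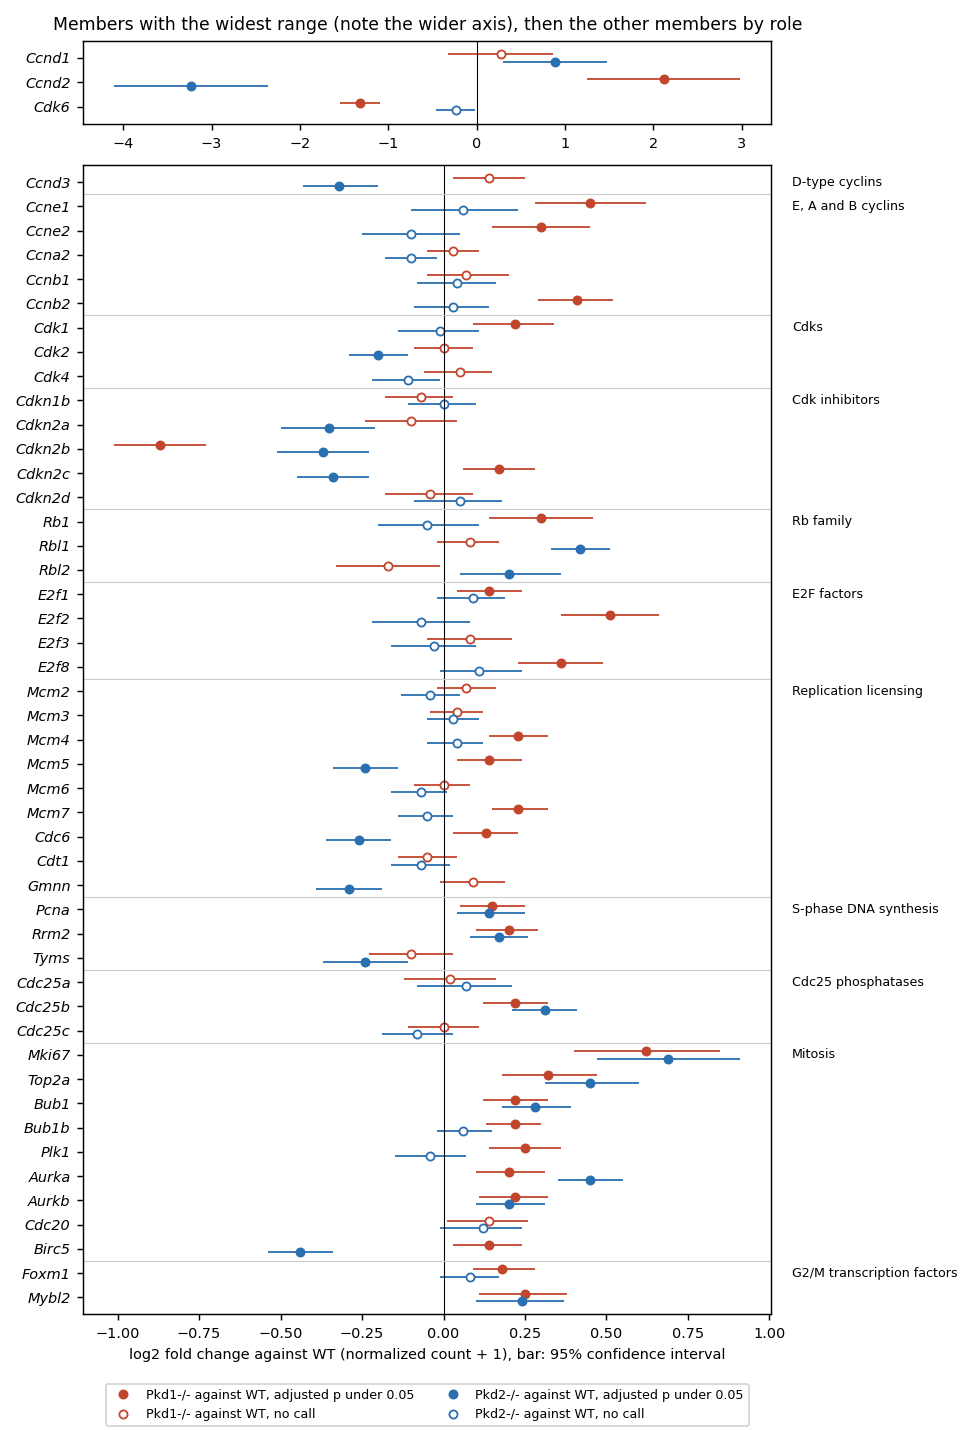
Log2 fold change against WT of each member in Pkd1-/- (red) and Pkd2-/- (blue) cells with its 95% confidence interval, filled where the limma adjusted p is under 0.05; the upper panel has a wider axis. In Pkd1-/- cells the cyclins, E2F factors and mitosis genes lie to the right of 0, and in Pkd2-/- cells the Ink4 genes other than Cdkn2d, and Cdc6, Gmnn and Birc5, lie to the left.

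Of the 9 licensing genes, which load the replicative helicase onto DNA, 4 were higher and 5 were not called in Pkd1-/- cells, while 3 were lower and 6 were not called in Pkd2-/- cells. Of abundant genes 20.1% were higher in Pkd1-/- cells and 26.0% lower in Pkd2-/- cells, against 13.6% and 22.3% of all genes, and the 3 of 9 in Pkd2-/- cells is near these shares. Mcm4, a helicase subunit, had a mean of 18162 ± 373 in WT and 21338 ± 657 in Pkd1-/- cells (0.23, adjusted p = 0.000348), and Mcm7 had 13884 ± 602 and 16311 ± 124 (0.23, adjusted p = 0.000265; SD, n = 4). Neither was called in Pkd2-/- cells (0.04 and -0.05). Mcm5 and the loading factor Cdc6 passed the test in opposite directions, at 0.14 and 0.13 in Pkd1-/- and -0.24 and -0.26 in Pkd2-/- cells. Their rises in Pkd1-/- cells lost their calls without WT replicate 1 or 4 or Pkd1-/- replicate 2, 3 or 4 for Mcm5 (adjusted p up to 0.0859) and without any replicate of either genotype but WT replicate 1 for Cdc6 (adjusted p up to 0.144), and both without a filter (0.0519 and 0.0647). Gmnn, which encodes geminin, the inhibitor of licensing, was lower in Pkd2-/- cells, from 2768 ± 53.2 to 2270 ± 124 (-0.29, adjusted p = 6.81e-05). Its target Cdt1 was not called in either mutant, nor were Mcm2, Mcm3 and Mcm6. Between the mutants, 5 of the 9 were lower in Pkd2-/- cells (Mcm4, Mcm5, Mcm7, Cdc6 and Gmnn, -0.39 to -0.20), beside 28.7% of abundant genes. Mcm2 was added without Pkd2-/- replicate 1 (-0.13, adjusted p = 0.0286) and with a minimum mean of 10 (0.0384), upper quartile rescaling (0.0123), array quality weights (0.0457) or voom weights (0.0315), and Mcm6 with upper quartile rescaling (-0.11, adjusted p = 0.0415).

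The S-phase synthesis genes Pcna and Rrm2 were slightly higher in both mutants. Pcna, the sliding clamp of DNA polymerase, had 8893, 9393, 9281 and 8511 in WT, 10336, 9485, 10367 and 9777 in Pkd1-/- (0.15, adjusted p = 0.0306) and 9914, 9735, 10671 and 9509 in Pkd2-/- cells (0.14, adjusted p = 0.0246). Both mutants lay above WT, but the calls for Pcna were lost without WT replicate 1 or 4 in each mutant, without Pkd1-/- replicate 1 or 3, and without Pkd2-/- replicate 3 (adjusted p up to 0.101), and in Pkd2-/- cells also with upper quartile rescaling (0.11, adjusted p = 0.102). Rrm2, the regulated subunit of ribonucleotide reductase, rose by 0.20 (adjusted p = 0.00204) and 0.17 (adjusted p = 0.00376). Tyms, which makes thymidylate, was lower in Pkd2-/- cells (-0.24, adjusted p = 0.00387). Of the Cdc25 phosphatases, which activate Cdks, Cdc25b rose in both mutants, from 2263 ± 127 to 2628 ± 75.2 and 2802 ± 53.9 (SD, n = 4), and Cdc25a and Cdc25c were not called.

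Of the mitosis genes, 8 of 9 were higher in Pkd1-/- cells, where all 9 had every mutant library above WT, and 5 of 9 were higher in Pkd2-/- cells with 1 lower, beside 20.1% and 34.8% of abundant genes higher in these comparisons. Mki67, the gene of the proliferation antigen Ki-67, had the largest rise of the group. It had 4707, 4582, 5145 and 3461 in WT, 5796, 7194, 6991 and 7440 in Pkd1-/- (0.62, SE 0.11, adjusted p = 0.000175) and 6671, 6538, 6958 and 8579 in Pkd2-/- cells (0.69, SE 0.11, adjusted p = 3.14e-05). Both mutants lay above WT and did not differ from each other beyond their spread (0.07, 95% interval -0.16 to 0.29). WT replicate 4, the library with the highest mitochondrial share, was the lowest for Mki67, and over single libraries left out the rise was 0.51 to 0.70 in Pkd1-/- and 0.57 to 0.76 in Pkd2-/- cells.

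Top2a, the topoisomerase that untangles chromosomes, had 20034, 16129, 15766 and 15583 in WT, 20597, 22277, 20784 and 20442 in Pkd1-/- (0.32, SE 0.068, adjusted p = 0.00121) and 23837, 23952, 21293 and 23001 in Pkd2-/- cells (0.45, SE 0.068, adjusted p = 2.15e-05). WT replicate 1 came near the mutants. The spindle kinase gene Aurka had 1731, 1865, 1737 and 1641 in WT, 2032, 2038, 2051 and 1901 in Pkd1-/- (0.20, adjusted p = 0.00435) and 2450, 2329, 2440 and 2304 in Pkd2-/- cells (0.45, SE 0.050, adjusted p = 5.4e-07). It was the 1 mitosis gene that was higher in Pkd2-/- than in Pkd1-/- cells (0.25, adjusted p = 0.000391), apart from a call for Top2a with only the 2 genotypes in the fit (0.13, adjusted p = 0.0429). Aurkb, the kinase of the chromosomal passenger complex, rose by 0.22 and 0.20, and the checkpoint kinase gene Bub1 by 0.22 and 0.28. Plk1 and Bub1b rose in Pkd1-/- cells (0.25 and 0.22) and were not called in Pkd2-/- cells (-0.04 and 0.06), and Cdc20 was not called in either. For Cdc20 a call appeared in Pkd1-/- cells with only the 2 genotypes in the fit (0.14, limma adjusted p = 0.0402) and in Pkd2-/- cells without Pkd2-/- replicate 2 (0.16, adjusted p = 0.0428).

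Birc5 departed from the group. It encodes survivin, which works with Aurkb in the passenger complex and inhibits apoptosis. WT libraries held 3088, 3204, 3203 and 2973, and Pkd1-/- libraries, at 3598, 3358, 3333 and 3422, were slightly above them (0.14, adjusted p = 0.0436), a call lost without any replicate of either genotype but WT replicate 2 (adjusted p up to 0.126), without a filter (0.0555) and with array quality weights (0.0501). In Pkd2-/- cells it fell to 2414, 2368, 2272 and 2139, below every other library (-0.44, SE 0.049, adjusted p = 5.6e-07), and the mutants differed by -0.58 (adjusted p = 1.13e-08). Ccnb2, a B cyclin of mitosis, had 2588, 2606, 2299 and 2520 in WT, 3429, 3270, 3347 and 3202 in Pkd1-/- (0.41, SE 0.054, adjusted p = 1.22e-05) and 2630, 2461, 2740 and 2370 in Pkd2-/- cells (0.03, no call). Its relative Ccnb1 was not called in either mutant. Foxm1, the factor that switches on mitotic genes, had 2709, 2723, 2731 and 2886 in WT, 2983, 3223, 3176 and 3178 in Pkd1-/- (0.18, adjusted p = 0.00357) and 2937, 2911, 2818 and 3024 in Pkd2-/- cells (0.08, no call). Mybl2, its partner gene, rose in both mutants (0.25 and 0.24, adjusted p = 0.00658 and 0.00562). Its Pkd2-/- libraries, at 1407, 1244, 1498 and 1385, overlapped WT, at 1116, 1153, 1273 and 1154.

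Promoters of members that moved together or apart are shown because late cell cycle genes are known to share 2 elements, the CCAAT box and the cell cycle homology region (CHR), and S-phase genes the E2F site. RefSeq sequences from 250 bases before to 50 after the start (GRCm38.p6) were found for 40 of the 50 members, with 46 promoters. The CHR was searched on both strands as TTTGAA or else as TTTAAA, the box as CCAAT, and the E2F site as TTCCCGC, or with changed bases as TTGGCGC, or likewise as TTCGCGC, or finally as TTGCCGC. Read on the other strand, an E2F match can end inside a CCAAT box and overlap it. CHR letters were in 20 of the 46 member promoters and in 27.6% of all 32851 promoters, CCAAT in 30 and in 37.4%, and E2F letters in 19 and in 9.57%. Capitals mark these letters on either strand. Mki67 (chr7:135716330-135716629, minus strand), higher in both mutants, held all 3 kinds. Ccnb2 (chr9:70421505-70421804, minus strand), higher in Pkd1-/- cells, held CHR and CCAAT letters. Birc5 (chr11:117848987-117849286, plus strand), lower in Pkd2-/- cells, held CHR letters and neither of the others. Cdk6 (chr5:3343643-3343942, plus strand), lower in Pkd1-/- cells, held none. This window lies inside the annotated Cdk6 gene, which begins at 3341485, and the letters at that upstream end were not searched. The letters did not always go with the direction of change. Mybl2, higher in both mutants (0.25 and 0.24), held none. Cdk1 held all 3 kinds, and it was higher in Pkd1-/- cells (0.22) but not called in Pkd2-/- cells (-0.01). A match is a description of the letters in the searched window and not a bound site.
Mki67: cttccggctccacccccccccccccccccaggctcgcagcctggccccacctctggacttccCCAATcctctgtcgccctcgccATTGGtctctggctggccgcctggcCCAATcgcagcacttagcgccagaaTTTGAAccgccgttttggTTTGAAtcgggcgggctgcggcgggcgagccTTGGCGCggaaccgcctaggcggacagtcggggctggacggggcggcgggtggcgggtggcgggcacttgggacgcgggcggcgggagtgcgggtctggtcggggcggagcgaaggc
Ccnb2: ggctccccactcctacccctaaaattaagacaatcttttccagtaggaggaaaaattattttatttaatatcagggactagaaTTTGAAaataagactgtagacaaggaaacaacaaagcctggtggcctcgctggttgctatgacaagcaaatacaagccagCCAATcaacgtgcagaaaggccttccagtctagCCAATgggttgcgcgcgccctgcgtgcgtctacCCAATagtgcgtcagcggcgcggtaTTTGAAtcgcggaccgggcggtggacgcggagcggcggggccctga
Birc5: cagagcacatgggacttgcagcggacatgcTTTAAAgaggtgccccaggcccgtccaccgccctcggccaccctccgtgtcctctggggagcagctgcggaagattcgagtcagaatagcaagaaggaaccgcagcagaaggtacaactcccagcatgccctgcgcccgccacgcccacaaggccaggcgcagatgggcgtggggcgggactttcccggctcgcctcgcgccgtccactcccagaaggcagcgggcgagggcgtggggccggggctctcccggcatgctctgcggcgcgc
Cdk6: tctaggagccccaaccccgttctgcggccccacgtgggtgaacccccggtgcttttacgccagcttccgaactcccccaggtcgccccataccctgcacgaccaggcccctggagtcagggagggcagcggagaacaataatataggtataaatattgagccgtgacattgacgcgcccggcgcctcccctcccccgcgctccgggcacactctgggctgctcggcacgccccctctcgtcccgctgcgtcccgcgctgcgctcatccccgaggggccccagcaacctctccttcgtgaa

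Other genes of the same processes, which are not members, were counted to place the list. Of 33 further S-phase genes, 18 were higher and 4 lower in Pkd1-/- cells, and 3 were higher and 14 lower in Pkd2-/- cells, with medians of 0.15 and -0.08. Rfc3, a clamp loader subunit, rose in Pkd1-/- cells by 0.39 (2812 to 3670, adjusted p = 2.96e-05), and Dbf4, the activator of Cdc7, was lower (-0.32, adjusted p = 0.000404). In Pkd2-/- cells Gins2, a subunit of the replicative helicase complex, was lower (2960 to 2004, -0.56, adjusted p = 6.01e-07) and Orc2, of the origin recognition complex, higher (0.50, adjusted p = 2.91e-08). Between the mutants 21 of the 33 were lower in Pkd2-/- cells and 5 higher, with a median of -0.22. Of all genes, 13.6% were higher and 13.5% lower in Pkd1-/- cells, and 20.0% and 22.3% in Pkd2-/- cells. Between the mutants, 24.3% of all genes were lower in Pkd2-/- cells and 21.9% higher.

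Of 46 further mitotic genes, 27 were higher and 2 lower in Pkd1-/- cells, and 19 were higher and 9 lower in Pkd2-/- cells, with medians of 0.18 and 0.12. The Pkd1-/- shares, 58.7% and 4.35%, stand beside 20.1% and 18.5% of abundant genes. The Pkd2-/- shares, 41.3% and 19.6%, are near the 34.8% and 26.0% of abundant genes. Incenp, the scaffold of the passenger complex, rose in Pkd1-/- cells (4293 to 5968, 0.47, adjusted p = 4.11e-08). Cenpf, a kinetochore gene, rose in Pkd2-/- cells (3178 to 4779, 0.59, adjusted p = 2.22e-05). Cenpa, the centromeric histone gene, was lower in both (-0.19 and -0.36), and between the mutants 17 of the 46 were lower in Pkd2-/- cells and 6 higher. These are 37.0% and 13.0%, beside 28.7% and 35.9% of abundant genes.

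Further brakes and checkpoint genes were split, with 3 of 15 higher and 3 lower in Pkd1-/- cells and 7 higher and 5 lower in Pkd2-/- cells. The Pkd1-/- shares, 20.0% in each direction, are near the 20.1% higher and 18.5% lower of abundant genes. The Pkd2-/- shares, 46.7% and 33.3%, stand beside 34.8% and 26.0% of abundant genes. Over all tested genes, 13.6% were higher and 13.5% lower in Pkd1-/- cells, and 20.0% and 22.3% in Pkd2-/- cells. Btg2, an antiproliferative gene of the p53 response, rose in Pkd2-/- cells from 5972 to 15739 (1.38, adjusted p = 7.83e-07), and Gadd45a, a stress gene, from 716 to 1358 (0.92, adjusted p = 4.51e-09), whereas Gadd45a was lower in Pkd1-/- cells (502, -0.51, adjusted p = 1.92e-05). Ccng2, a cyclin of arrested cells, was lower in both (4433 in WT, 2611 in Pkd1-/- and 3053 in Pkd2-/- cells). Other brakes rose in Pkd1-/- cells: the Cdk inhibitor gene Cdkn1c from 40.5 to 79.2 (0.97, limma adjusted p = 0.000895). The checkpoint gene Chek2 rose there from 1217 to 1577 (0.37, adjusted p = 2.03e-05). So did the more abundant Cdk inhibitor gene Cdkn1a, from 6908 to 8638 (0.32, limma adjusted p = 0.000114). Of 11 genes of growth input, 2 were lower and 9 were not called in Pkd1-/- cells (18.2% lower, near the 18.5% of abundant genes). In Pkd2-/- cells 5 were higher and 3 lower (45.5% and 27.3%, beside 34.8% and 26.0% of abundant genes). There the immediate early gene Fos rose from 7370 to 20760 (1.49, adjusted p = 3.5e-05) and Egr1 from 21449 to 38859 (0.83, adjusted p = 0.000105), while Mycl fell from 89.0 to 12.5 (-2.74, adjusted p = 2.07e-08). Another gene of the growth input list had a lower log2 fold change in Pkd2-/- cells (-4.11). In Pkd1-/- cells the lowest of this list was -1.12.

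Subunits and regulators of the ubiquitin ligases APC/C and SCF, which destroy cyclins and inhibitors, were 4 of 19 higher and 4 lower in Pkd1-/- cells and 5 higher and 10 lower in Pkd2-/- cells, with medians of -0.03 and -0.24. The Pkd1-/- shares, 21.1% in each direction, are near the 20.1% and 18.5% of abundant genes. The Pkd2-/- shares, 26.3% higher and 52.6% lower, stand beside 34.8% and 26.0% of abundant genes. Anapc4, an APC/C subunit, was lower in Pkd1-/- cells (3001 to 2127, -0.50, adjusted p = 1.26e-07), and Skp2, which targets Cdkn1b protein for destruction, was higher (1837 to 2226, 0.28, adjusted p = 0.000893). The remaining E2F and DREAM genes, which control the timing of the program, were 3 of 13 higher and 3 lower in Pkd1-/- cells and 4 higher and 2 lower in Pkd2-/- cells. Their shares were 23.1% in each direction in Pkd1-/- cells, again near those of abundant genes. In Pkd2-/- cells they were 30.8% higher and 15.4% lower, beside 34.8% and 26.0% of abundant genes. Not all genes of this list are abundant. Over all tested genes, 13.6% were higher and 13.5% lower in Pkd1-/- cells, and 20.0% and 22.3% in Pkd2-/- cells. E2f6, a repressor, went from 777 in WT to 1018 in Pkd1-/- (0.39, adjusted p = 0.000122) and 579 in Pkd2-/- cells (-0.43, adjusted p = 2.34e-05).

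**Figure D5:**
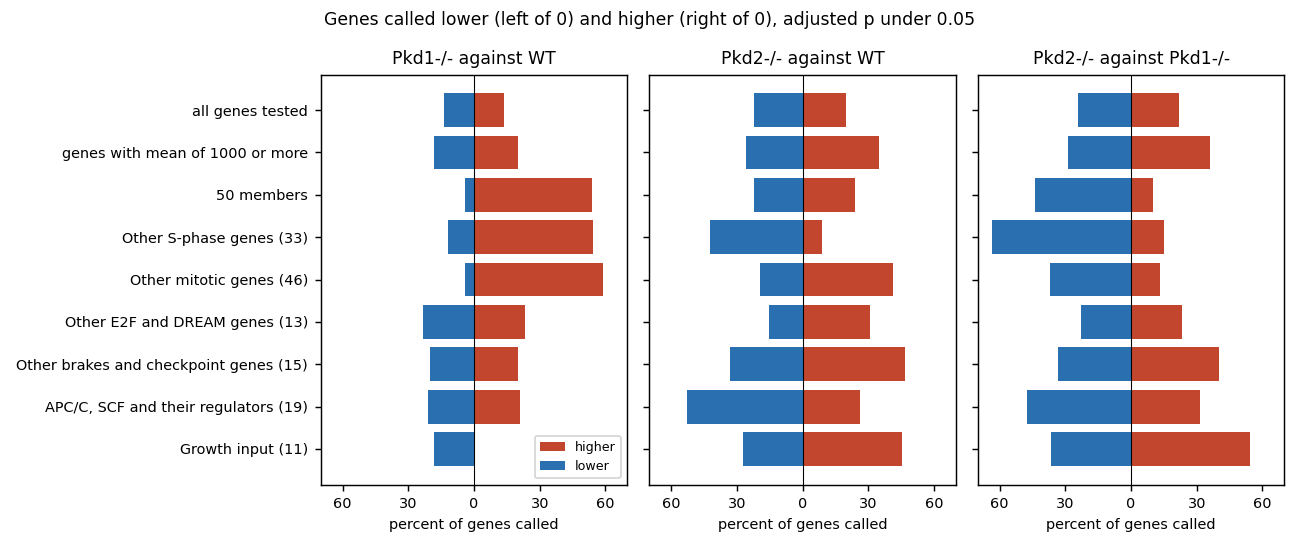
Percent of genes called lower (left of 0) and higher (right of 0) at a limma adjusted p under 0.05 in each comparison, for all genes tested, genes with a mean of at least 1000, the 50 members and the 6 further lists with their sizes in brackets. In Pkd1-/- against WT the members, S-phase and mitotic genes extend to the right (54.5% of S-phase and 58.7% of mitotic genes higher, beside 13.6% of all genes), and in Pkd2-/- against Pkd1-/- the S-phase genes extend to the left (63.6% lower, beside 24.3%).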

How the data were processed

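The authors sequenced 12 libraries, used Trim Galore for trimming, HISAT2 for alignment to mm10 (GRCm38) and htseq-count for counts of each Ensembl gene. The deposited score values are these counts, which the authors divided by each library's DESeq2 size factor and rounded to whole numbers, so no model of raw reads was applied. From the steps between low values the weight of a read was estimated per library, which gave totals of 23188147 to 30325429 reads. A count of 0 allows up to 3 reads, and this limit and the counting intervals (exact Clopper-Pearson, 95%) cover counting error only.

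Gene names, positions and exon lengths came from the GENCODE annotation of GRCm38, which held 47223 of the identifiers, and 419 were not matched. All 12 sample columns were used. For 3 comparisons, limma 3.58.1 in R 4.3.3 (lmFit, eBayes with a trend) was fitted once to log2(normalized count + 1) of all 12 libraries, for the 18552 genes whose mean reached 1. Two-sided p-values received the Benjamini-Hochberg adjustment over all tested genes. Genes were called at an adjusted p under 0.05, and a second rule also asked for a log2 change of 1 or more, up or down. In data simulated for Pkd1-/- against WT (18287 genes), the test recovered 59.6% of 99 genes changed by 0.5 and 77.8% of 99 changed by 1.5, with 12 unchanged genes called. Among genes with a mean of at least 10, which all members reach, it recovered 76.6% of 77 and 98.6% of 69. The simulation gave every gene the same dispersion and held no change between 0 and 0.5. It therefore does not measure recovery of changes near the members' median. Python 3.11.15 with pandas 2.3.3, scipy 1.17.1 and matplotlib 3.10.9 was used for the rest.

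The members and the further lists were chosen with earlier results of these data known. Values in every library are given for the D-type cyclins, the Cdk inhibitors, the Rb family, the 5 highest and 5 lowest called members of each comparison, and Mki67, Top2a, Pcna, Cdk1 and Foxm1. Of each further list, genes named were among the 2 highest and 2 lowest called in a mutant, apart from Cdkn1a. Alternatives were other pseudocounts and filters, a replicate block, upper quartile rescaling, array quality weights, only the genotypes compared, leaving out each library, and, added after seeing the data, voom weights from the estimated reads.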

Additional observations from a re-analysis of the deposited data

Results flagged for a closer look

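In 7 of 150 groups of 4 libraries (50 members in 3 genotypes), 1 library stood apart from the other three beyond Dixon's 95% critical value for the gap as a share of the range, and chance alone gives about 1 in 20. Ccnd2 had 3 normalized counts in Pkd2-/- replicate 3 and 0 in the others. Rbl2 was low in Pkd1-/- replicate 1, at 1088. Cdt1 was low in Pkd2-/- replicate 2, at 6245. Cdc25a and Foxm1 were high in WT replicate 4, at 1855 and 2886, the library with the highest mitochondrial share. Top2a was high in WT replicate 1, at 20034. Aurka was low in Pkd1-/- replicate 4, at 1901.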

How the results depend on the processing

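Of 79 called results of single members, leaving out 1 library kept 588 of 632 values on the same side of the threshold, and 44 values of 10 results lost it. The other alternatives kept 703 of 711, and 8 values of 6 results lost it, with 0 changes of direction in either set. With 1 library left out, the members called higher ranged from 21 to 26, 10 to 12 and 5 to 6 in Pkd1-/- against WT, Pkd2-/- against WT and Pkd2-/- against Pkd1-/-. Those past a log2 fold change of 1 in Pkd2-/- against WT ranged from 1 to 2. The members' median ranged from -0.02 to 0.01 in Pkd2-/- against WT and from -0.11 to -0.08 in Pkd2-/- against Pkd1-/-, and upper quartile rescaling gave -0.04 and -0.15. Without a filter on low values, 23 members were called higher in Pkd1-/- against WT. Members without a call that lie near 0 changed sign. Upper quartile rescaling gave 0.01 for Mcm6 in Pkd1-/- against WT, and 0.0 for Ccnb2 and Mcm3 in Pkd2-/- against WT. Array quality weights gave 0.01 for Cdk1 in Pkd2-/- against WT, and 0.01 for Pcna, 0.0 for Mki67 and 0.0 for Aurkb in Pkd2-/- against Pkd1-/-. With 1 library left out, signs changed within these log2 ranges. In Pkd1-/- against WT they were Cdk2 -0.02 to 0.02, Mcm6 -0.03 to 0.02, Cdc25a -0.02 to 0.06, Cdc25c -0.02 to 0.02. In Pkd2-/- against WT they were Ccnb2 -0.01 to 0.06, Cdk1 -0.05 to 0.03, Cdkn1b -0.04 to 0.03, Rb1 -0.09 to 0.03, E2f3 -0.07 to 0.01, Cdc25a 0.0 to 0.11. In Pkd2-/- against Pkd1-/- they were Ccnb1 -0.07 to 0.01, Pcna -0.04 to 0.02, Cdc25a -0.03 to 0.08, Mki67 -0.02 to 0.11, Aurkb -0.04 to 0.02, Cdc20 -0.08 to 0.03, Mybl2 -0.05 to 0.04. The causes were not tested.

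Replicate numbers did not pair most of the libraries. Same-numbered libraries correlated in their deviations at -0.0726 to 0.2 (12 pairs), and 3 of 12 libraries correlated best with their own number. These 3 were the replicate 4 libraries. They correlated at 0.2 (WT and Pkd2-/-), 0.167 (Pkd1-/- and Pkd2-/-) and 0.0878 (WT and Pkd1-/-). Each also had the highest mitochondrial share of its genotype (3.61% in WT, 2.46% in Pkd1-/- and 2.84% in Pkd2-/- cells). The cause of this shared pattern was not tested. With a replicate block, 27, 12 and 5 members were called higher and 2, 12 and 23 lower in the 3 comparisons. The block added calls for Cdk6 in Pkd2-/- against WT (-0.24, limma adjusted p = 0.0167) and Tyms in Pkd2-/- against Pkd1-/- (-0.15, limma adjusted p = 0.0211).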
